A study of Mus musculus with 87 samples.

Results

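The mammalian cyclin-dependent kinase inhibitors are 7 genes: the Cip/Kip genes Cdkn1a (p21), Cdkn1b (p27) and Cdkn1c (p57), and the INK4 genes Cdkn2a (p16Ink4a and p19Arf), Cdkn2b (p15), Cdkn2c (p18) and Cdkn2d (p19Ink4d). They were taken by name as the gene family, and all 7 were found among the 37991 genes of the table. RNA was measured by strand-specific poly(A) RNA-Seq of individual livers of male C57BL/6 mice of 12 to 14 weeks, 1 library per liver, and 80 libraries in 19 groups were analysed. All mice were fed in the dark only, from ZT12 to ZT24, where ZT (Zeitgeber Time) 0 is the start of the light period.

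Partial hepatectomy (PH), the surgical removal of most of the liver, was performed at ZT2, and post-PH livers (X) were collected at 1 h (n = 6), 4 h (n = 3), 10 h (n = 6), 20 h (n = 6), 28 h (n = 3), 36 h (n = 6), 44 h (n = 3), 48 h (n = 5) and 72 h (n = 3), and at 1 week (n = 3) and 4 weeks (n = 2). Sham-operated mice (S), which had a laparotomy without removal of tissue, were collected at 1 h (n = 6), 4 h (n = 5), 10 h (n = 3), 20 h (n = 3) and 48 h (n = 3). Unoperated livers (C) were collected at 0 h (ZT2, n = 9), at 4 h (ZT6, n = 3) and at 4 weeks (n = 2). A group is named by its letter and time, so X48 is PH at 48 h and C4W unoperated at 4 weeks. Of 6 livers labelled X4, the 3 with replicate numbers 4 to 6 were used here.

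Estimated depth was 12.2 to 48.9 M reads (M, mega) per library, with a median of 26.7 M. All 8 hepatocyte markers were expressed in every group, and their summed level in C0 was 45150 to 53960 RPKM (reads scaled to exon length and library size). One group of control livers stood apart for Cdkn1a and, by a smaller gap, for Cdkn2d. In C0, Cdkn1a lay between 0.15 and 2.26 log2 RPKM in replicates 1 to 3 and 7 to 9. In replicates 4 to 6 it lay between 5.36 and 5.50. Cdkn2d was lower in replicates 4 to 6 (−1.12 to −0.51) than in replicates 1 to 3 (−0.41 to 0.07) and 7 to 9 (−0.15 to −0.01). The called Cdkn1a comparisons of operated livers with C0 are therefore given also for each set of 3 C0 livers alone. Post-PH and sham groups compared with C0 also share that 1 control group, so their changes are given side by side and are not independent of each other.

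Cyclin-dependent kinases drive the cell-division cycle when bound by a cyclin. Cip/Kip proteins bind cyclin-kinase complexes of several kinds, and they also help cyclin D assemble with its kinase, whereas INK4 proteins bind Cdk4 and Cdk6 themselves and keep cyclin D away. In the liver p21 is best known for its induction by injury and as a target of p53, p27 is largely controlled by protein turnover, p57 is an imprinted gene, and the p16Ink4a and p15 genes lie side by side at a locus associated with senescence.

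Promoters are shown for the 4 members with a called PH-sham difference. RefSeq gave windows from 250 bases before to 50 bases after a start for 6 of the 7 members, 9 windows in all; none was matched for Cdkn1c. They are on build GRCm38.p6, which is not the mm9 build of the deposited values. Capitals mark matches, on either strand, to 5 motifs. The first was the E2F core, searched with the letters TTCCCGC and, as further forms of the same core element, with TTCGCGC as well as with the related string TTGGCGC and lastly with the string TTGCCGC instead. The second was the CCAAT box, the third was the GC box with the letters GGGCGG, the fourth was the CHR element of cell-cycle genes with the letters TTTGAA, and the fifth was the string ACATGT. These letters can overlap but did not in the windows shown.
Cdkn1a, first start, chr17:29090729-29091028, plus strand: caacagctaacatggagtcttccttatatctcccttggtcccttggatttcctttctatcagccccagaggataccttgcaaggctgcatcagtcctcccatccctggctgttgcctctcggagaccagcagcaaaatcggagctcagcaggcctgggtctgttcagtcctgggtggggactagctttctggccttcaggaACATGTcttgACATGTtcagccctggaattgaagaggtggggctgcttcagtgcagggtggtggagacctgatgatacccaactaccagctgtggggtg
Cdkn1b, chr6:134920151-134920450, plus strand: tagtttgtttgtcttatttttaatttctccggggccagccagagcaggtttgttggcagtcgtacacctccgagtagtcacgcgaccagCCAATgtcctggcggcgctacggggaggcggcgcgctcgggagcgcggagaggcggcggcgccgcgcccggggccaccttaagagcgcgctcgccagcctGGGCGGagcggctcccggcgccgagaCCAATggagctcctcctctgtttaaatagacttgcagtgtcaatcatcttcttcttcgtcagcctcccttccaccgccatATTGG
Cdkn2c, first start, chr4:109666707-109667006, minus strand: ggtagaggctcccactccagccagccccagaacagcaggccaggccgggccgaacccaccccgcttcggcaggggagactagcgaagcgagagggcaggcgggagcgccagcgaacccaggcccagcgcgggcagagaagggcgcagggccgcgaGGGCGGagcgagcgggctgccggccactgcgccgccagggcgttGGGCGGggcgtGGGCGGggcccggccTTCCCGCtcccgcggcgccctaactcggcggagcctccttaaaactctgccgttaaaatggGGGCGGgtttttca
Cdkn2c, second start, chr4:109665323-109665622, minus strand: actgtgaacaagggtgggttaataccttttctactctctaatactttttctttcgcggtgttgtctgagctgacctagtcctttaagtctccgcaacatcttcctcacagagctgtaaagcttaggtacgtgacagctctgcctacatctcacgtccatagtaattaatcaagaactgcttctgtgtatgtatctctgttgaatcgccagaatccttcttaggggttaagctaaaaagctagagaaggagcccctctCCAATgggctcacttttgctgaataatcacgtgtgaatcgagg
Cdkn2d, chr9:21291160-21291459, minus strand: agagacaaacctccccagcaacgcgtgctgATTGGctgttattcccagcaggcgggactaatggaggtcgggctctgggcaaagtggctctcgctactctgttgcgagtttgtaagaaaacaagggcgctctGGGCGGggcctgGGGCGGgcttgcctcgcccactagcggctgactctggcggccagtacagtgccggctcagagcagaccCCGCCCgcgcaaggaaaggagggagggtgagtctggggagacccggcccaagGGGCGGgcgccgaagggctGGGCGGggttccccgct

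The first Cdkn1a window held a pair of ACATGT matches and no match to the other motifs, and its GC content was 54.7%. The second Cdkn1a window, which is not shown, had 64.7% GC and held 2 GC boxes and no other match. ACATGT was present in 5.28% of all 32851 promoter windows. The Cdkn1b window held 3 CCAAT matches, a motif of 37.4% of windows, and 1 GC box. The first Cdkn2c window, at 73.3% GC, held 1 E2F core and 4 GC boxes, while the second, at 44% GC, held 1 CCAAT and none of the others. The Cdkn2d window held 5 GC boxes and 1 CCAAT. The E2F core was in 9.57% of all windows, the GC box in 35.7% and the CHR element in 17.9%. A match is a description of letters, not a site of binding.

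In the mm9 annotation of the files, Cdkn1a lies at chr17:29227924-29237667 on the plus strand, Cdkn1b at chr6:134870419-134875531 on the plus strand and Cdkn1c at chr7:150644255-150646955 on the minus strand. Cdkn2a (chr4:88920377-88940557), Cdkn2b (chr4:88952198-88956941), Cdkn2c (chr4:109333481-109339794) and Cdkn2d (chr9:21092907-21095653) are all on the minus strand. By these coordinates no member overlapped another, and overlap with other annotated genes was not tested. Cdkn2d, however, has a near-identical copy: the 1271-base transcript of Gm4694 (chr9:123836860-123839608, plus strand) differs from it at 1 base, and 1003 of the 1073 exonic stretches of 100 bases, the read length, are the same in both (93.5%). The other 6 members shared no such stretch with another gene. Since reads matching several places were divided among them, the Cdkn2d level is uncertain, and Gm4694 had a median of 0.883 of the Cdkn2d value (range 0.455 to 1).

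In resting liver (C0, n = 9) the members differed in level. Cdkn1a had the highest mean, 2.55 ± 2.23 log2 RPKM (SD), with the spread between livers described above, followed by Cdkn1b at 2.15 ± 0.15, Cdkn2c at 0.26 ± 0.31, Cdkn2d at −0.36 ± 0.43 and Cdkn1c at −1.0 ± 0.71. The order of the first pair rested on C0 replicates 4 to 6: in replicates 1 to 3 the Cdkn1a mean was 1.16 and that of Cdkn1b 2.02, and in replicates 7 to 9 they were 1.07 and 2.26. Cdkn2a and Cdkn2b were at the limit of detection throughout. Because RPKM is per length, these levels can be compared between genes, except that of Cdkn2d, whose reads were divided with its copy Gm4694. Their sum was 9.40 RPKM in C4W (n = 2) and 6.67 ± 0.117 (SD, n = 3) in S10, where it was lowest. It was 86.5 ± 8.20 in X4 (n = 3), where Cdkn1a made up 96.4% of it, and 65.7 ± 13.2 in X44 (n = 3), where Cdkn1a made up 51.3% and Cdkn2c 25.3%. Cdkn1a thus made up most of the sum at 1 h and 4 h after either operation (group means of 85.2% to 96.4%). Its share was also high in X20 (80.2%) and S48 (78.3%), and in C0 livers it ranged from 11.6% to 86.9%. In X44 Cdkn1b made up a further 11.3% and Cdkn2d 10.6%.

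**Figure D1:**
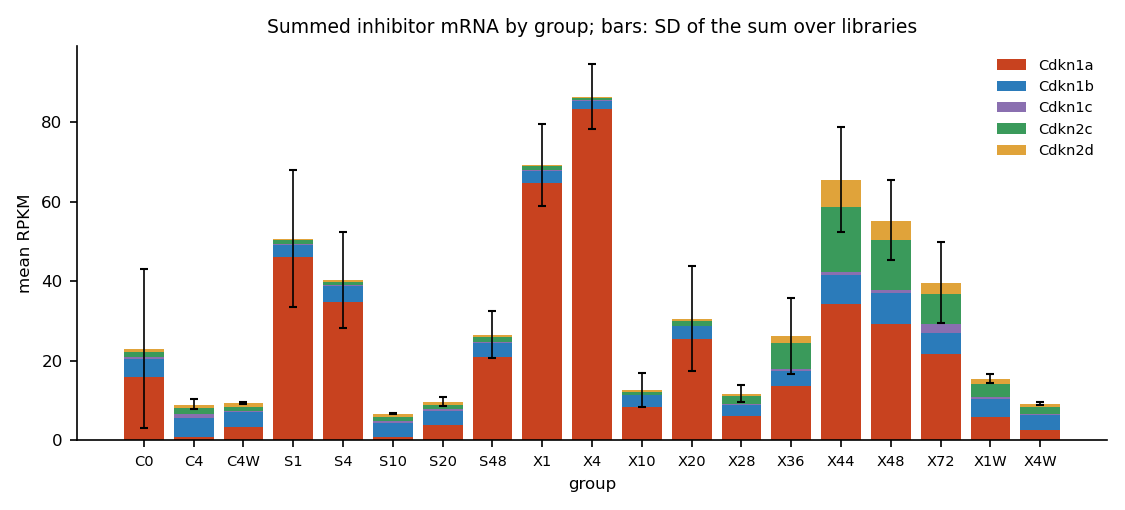
Stacked mean levels of the inhibitors in RPKM (vertical axis) for each group of livers (horizontal axis), with the SD of the sum as error bar. The sum is highest in X4 (86.5 RPKM, nearly all Cdkn1a), is 55.5 in X48 with a visible Cdkn2c share, and is 26.7 in S48.

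Cdkn1a had the widest range of levels. Its log2 RPKM was 6.30, 6.54 and 6.29 in the 3 X4 livers, the highest group, which did not overlap with X1 (5.46 to 6.18, median 6.08, n = 6), the next one down. The lowest groups were S10 (−0.69, −0.88 and −0.04) and C4 (−1.54, 0.83 and −1.58). Sham livers at 1 h (4.60 to 6.09, median 5.66, n = 6) and at 4 h (5.51, 5.52, 5.29, 4.63 and 4.27) were as high as or close to post-PH livers of the same hours. High Cdkn1a RNA was therefore seen early after either operation.

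**Figure D2:**
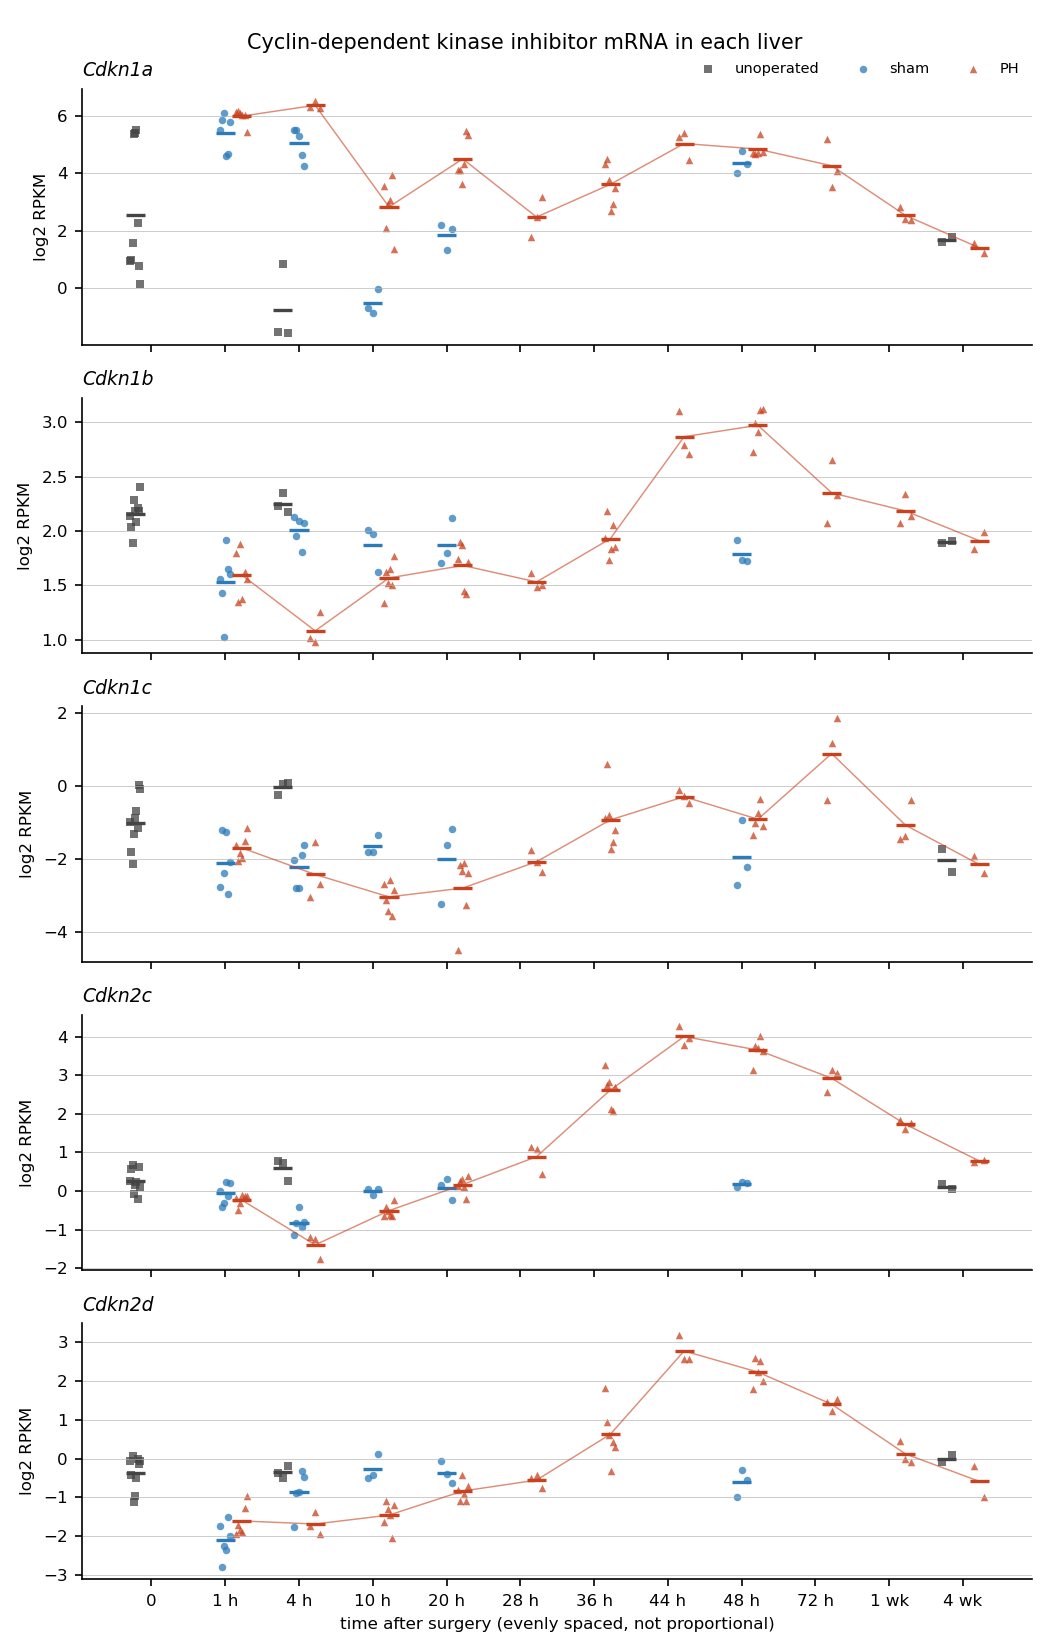
Level in log2 RPKM (vertical axis) of the 5 inhibitors tested, each point 1 liver, against time after surgery (horizontal axis, evenly spaced) for unoperated, sham and post-PH livers, with bars at group means. Cdkn2c and Cdkn2d are highest in X44 and X48, Cdkn1a in X4, and the C0 livers split for Cdkn1a.

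Both operated groups at 4 h lay above unoperated livers of the same hour for Cdkn1a. At ZT6, S4 exceeded C4 by 5.22 on the log2(RPKM + 0.25) scale on which all changes are given (SE 0.678, 37.3-fold; limma adjusted p = 1.62e-09). X4 exceeded C4 by 6.55 (93.7-fold, adjusted p = 5.99e-11). Between these groups 43.3% and 45.6% of the 15396 genes tested were called, where a call means a Benjamini-Hochberg adjusted p below 0.05 and a change beyond 0.5. Per the study's methods, the C4 livers were collected in another period than any S4 or X4 liver, so that period and surgery cannot be told apart in comparisons with C4. X4 and S4 livers did not overlap, but the difference of 1.33 (95% interval −0.03 to 2.68) did not pass the test (adjusted p = 0.202). At 1 h the difference between X1 and S1 was 0.57 (−0.50 to 1.64, adjusted p = 0.843), and the groups overlapped.

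Cdkn1a differed between PH and sham at 10 h and 20 h. At 10 h the post-PH livers lay at 1.35 to 3.95 log2 RPKM (median 3.00, n = 6), all above the sham values of −0.69, −0.88 and −0.04. The change was 2.97 (SE 0.657, 95% interval 1.66 to 4.28), a 7.84-fold difference with a limma adjusted p of 0.00121; in this comparison 7.02% of all genes were called, 3.4% higher and 3.62% lower. At 20 h the post-PH livers lay at 3.64 to 5.48 (median 4.22, n = 6), again all above the sham values of 2.21, 1.32 and 2.05. There the change was 2.56 (1.25 to 3.88, 5.91-fold, adjusted p = 0.00563), with 7.11% of all genes called, 4.49% higher and 2.61% lower (692 and 402 genes, or 447 and 587 with a common median). Between 10 h and 20 h the PH-sham difference of Cdkn1a moved by −0.41, which did not pass the test (no member did, in a comparison where 0.104% of genes were called and 1 member had an unadjusted limma p below 0.05).

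The 20 h call depended on a few livers. Without S20 replicate 2 the change was 2.31 (adjusted p = 0.0508). With only X20 replicates 1 to 3 it was 2.02 (adjusted p = 0.0646), and with only replicates 4 to 6 it was 3.10 (adjusted p = 0.00678); at 10 h the corresponding values were 3.01 and 2.94, both called. In both sets of X10 and X20 livers the change was thus upward, and it missed the threshold in replicates 1 to 3 at 20 h.

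At 48 h Cdkn1a was high in both operated groups. Sham livers measured 4.00, 4.77 and 4.32 log2 RPKM and post-PH livers 4.72, 4.69, 4.71, 5.36 and 4.75. The groups overlapped, and the difference was 0.48 (−0.87 to 1.84, limma adjusted p = 0.607). When libraries were scaled to a common median over the genes tested, it was −0.01. Of the sham groups, S10 and S20, at the times of the called PH-sham differences, were the lowest. Per the study's list of samples, the S10 and S20 livers came from the same period and the S48 livers from another. X10 and X20 livers came from both of these periods, and X48 livers from that of S48. Period and time can therefore not be told apart among these sham groups, nor fully between the PH-sham differences at 20 h and 48 h.

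Between X4 and X28, both at ZT6, Cdkn1a fell by 3.84 (adjusted p = 4.08e-05; 28.3% of all genes were called in that comparison), to 1.77, 2.46 and 3.19 log2 RPKM. The X44 livers then measured 5.26, 5.40 and 4.46, the X36 livers 2.69 to 4.49 (median 3.62, n = 6) and the X72 livers 5.21, 3.51 and 4.07. Later values were 2.81, 2.42 and 2.36 in X1W and 1.58 and 1.22 in X4W, beside 1.6 and 1.76 in C4W. The RNA of X36 to X72 livers stood above that of X28 in its means, but no change of Cdkn1a between X28 and X36, X36 and X44 or X48 and X72 was called.

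The size of any Cdkn1a change from C0 was set by which C0 livers were used. With all 9, post-PH livers were higher by 3.34 at 1 h, 3.72 at 4 h, 1.86 at 20 h, 2.39 at 44 h, 2.19 at 48 h and 1.62 at 72 h, all called. With C0 replicates 1 to 3 alone the same changes were 4.69, 5.07, 3.21, 3.74, 3.55 and 2.98. With replicates 7 to 9 alone they were 4.75, 5.13, 3.27, 3.80, 3.61 and 3.03. With replicates 4 to 6 alone they were 0.57, 0.95, −0.91, −0.38, −0.57 and −1.15, so that the direction turned at 20 h and later. Sham livers with all 9 C0 livers were higher by 2.77 at 1 h, 2.39 at 4 h and 1.71 at 48 h and lower by −2.75 at 10 h (2.44%, 11.7%, 3.83% and 11.2% of genes called in those directions). With replicates 1 to 3 alone these were 4.12, 3.74, 3.07 and −1.40, with replicates 7 to 9 alone 4.18, 3.80, 3.12 and −1.34, and with replicates 4 to 6 alone −3.59e-04, −0.38, −1.06 and −5.52. Some of these calls rested on single livers. The S48 call was lost when any 1 of C0 replicates 1 to 3 and 7 to 9, or any 1 S48 liver, was left out (1.43 to 1.89, adjusted p = 0.0618 to 0.179), and without the filter on low values (adjusted p = 0.112). The X72 call was lost without X72 replicate 1 (1.15, adjusted p = 0.199), X72 replicate 3 (1.72, adjusted p = 0.0506) or C0 replicate 9 (1.34, adjusted p = 0.0583), and without that filter (adjusted p = 0.063). The gap of 3.1 log2 units between C0 replicates 4 to 6 and the other 6 was exceeded by only 7 of the 15396 genes. In 7.05% of genes these 3 livers lay above the other C0 livers, and in 4.47% below.

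**Figure D3:**
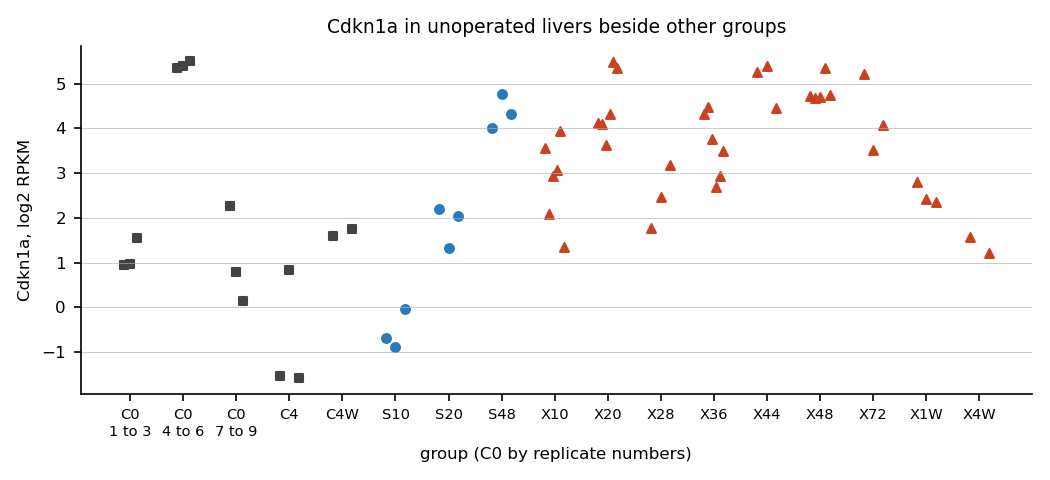
Cdkn1a level in log2 RPKM (vertical axis) in each library of the groups drawn (horizontal axis). C0 is split by replicate number into 1 to 3, 4 to 6 and 7 to 9. The groups S1, S4, X1 and X4 are not drawn. C0 replicates 4 to 6 lie at 5.36 to 5.50, and the other 6 C0 livers lie between 0.15 and 2.26.

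Among 19 other p53 targets, 4 (Mdm2, Trp53inp1, Ei24 and Perp) lay above in C0 replicates 4 to 6, without overlap with the other C0 livers. Another 4 (Gadd45a, Bbc3, Plk2 and Fas) lay below, beside 7.05% of all genes tested above and 4.47% below. Mdm2 (lowest 1.91 against a highest of 1.88 log2 RPKM in the others) and Perp (5.41 against 5.34) were only just apart. None of the 19 was called at 10 h, when Cdkn1a was higher after PH than after sham (limma, 4 at an unadjusted p below 0.05), and at 20 h none was called higher and 2 lower, beside 7.02% and 7.11% of all genes called at these times. At 48 h, when no Cdkn1a difference passed, 8 were called higher and 1 lower, where 24.5% of all genes were called higher, with a list median of 0.39 beside 0.27 over all genes tested. The largest were Phlda3, a repressor of Akt signalling (2.23), Tnfrsf10b, a death receptor (1.52), Eda2r, another receptor of the TNF family (1.34), and Zmat3, an RNA-binding protein (0.89).

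The mean level of Cdkn1b ran from 2.12 RPKM in X4 to 7.89 in X48, with SDs of 0.02 to 0.30 log2 RPKM within groups. The C0 livers lay between 1.89 and 2.40 log2 RPKM (median 2.18, n = 9). Its lowest group was X4, at 1.01, 0.98 and 1.25, below every liver of the next group, X28 (1.61, 1.48 and 1.5). Its highest were X48, at 2.73, 2.99, 2.91, 3.11 and 3.12, and X44, at 3.10, 2.79 and 2.71, whose ranges overlapped with each other and not with X72 (2.07, 2.65 and 2.33).

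At 4 h Cdkn1b was lower after PH than after sham surgery. The sham livers measured 2.13, 1.95, 2.09, 1.81 and 2.07 log2 RPKM and did not overlap with the 3 X4 livers. The change was −0.86 (SE 0.126, 95% interval −1.11 to −0.61), 1.81-fold lower, with a limma adjusted p of 9.01e-07, and Cdkn1b was the only 1 of the 5 members tested that was called at 4 h, where 8.64% of all genes were called, 5.48% lower and 3.16% higher (844 and 486 genes, or 761 and 707 with a common median). With only replicates 4 to 6 of both groups it was −0.79 (adjusted p = 1.65e-04). At 1 h no member was called, as for all but 0.65% of genes, and none had an unadjusted limma p below 0.05; the Cdkn1b difference was 0.06 (−0.14 to 0.26). The difference itself changed between 1 h and 4 h, by −0.92 (−1.24 to −0.60, adjusted p = 1.28e-04), a call made for 3.62% of genes in that direction. It changed back by 0.58 between 4 h and 10 h (0.23 to 0.93, adjusted p = 0.0443; 2.56% of genes), a call lost when any of 9 libraries was left out, with S10 replicate 3 the most (0.46, adjusted p = 0.204).

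At 48 h the direction was opposite. Sham livers measured 1.92, 1.73 and 1.72 log2 RPKM, all below the 5 X48 livers, and Cdkn1b was higher after PH by 1.13 (SE 0.126, 95% interval 0.87 to 1.38), which is 2.18-fold, with a limma adjusted p of 2.55e-11. A call in this direction was common at 48 h, made for 3773 genes or 24.5% of all tested (414 genes were lower), and the median change of all genes was 0.27. With libraries scaled to a common median, 1094 genes were called higher and 1723 lower. The Cdkn1b change was then 0.65 and still called. Between the ZT22 groups, X44 exceeded X20 by 1.12 (adjusted p = 9.01e-12; 12.9% of genes higher), and between X36 and X44 the gene rose by 0.90 (adjusted p = 5.15e-08; 6.48%). It fell by 0.60 from X48 to X72, a call lost without X72 replicate 1 (−0.47).

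Relative to C0, Cdkn1b was lower at 1 h (−0.52), 4 h (−0.99), 10 h (−0.55) and 28 h (−0.58) and higher at 44 h (0.68, adjusted p = 7.02e-07) and 48 h (0.78, adjusted p = 1.48e-10). After sham surgery it was lower than C0 at 1 h too (−0.58, adjusted p = 1.94e-06). The 1 h calls were near the threshold on the change: that of X1 was lost without X1 replicate 2 or 4 (both −0.48) or C0 replicate 9 (−0.49), and that of S1 without S1 replicate 3 (−0.49). The 2 higher calls rested on the scaling: at a common median they were 0.18 and 0.30 and neither was called. In the unoperated comparisons the share of all genes called was 13.5% at 1 h, 38.2% at 4 h, 36.4% at 10 h, 24.1% at 20 h, 24.9% at 28 h, 35% at 36 h, 39.2% at 44 h, 38.1% at 48 h, 33.2% at 72 h and 16.9% at 1 week.

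Of 9 genes of p27 turnover tested, 4 were called higher and none lower at 48 h against sham, where 24.5% of all genes were called higher, with a median of 0.43 beside 0.27 for all genes. They were Cks1b (2.44) and Skp2 (1.12), which together recognise phosphorylated p27 for ubiquitination, the ubiquitin-conjugating enzyme Cdc34 (0.73) and the F-box protein Fbxo4 (0.52). At 10 h none of the 9 was called (limma, 1 at an unadjusted p below 0.05), and at 4 h, when Cdkn1b was lower, 2 were called lower and none higher, beside 5.48% of all genes called lower.

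Cdkn1c was a low and variable transcript. The C0 livers lay between −2.15 and 0.02 log2 RPKM (median −0.98, n = 9), and group ranges overlapped with those of their neighbours from the highest group to the lowest. No PH-sham difference was called at any of the 5 times. The nearest were −0.61 at 10 h (limma adjusted p = 0.138) and 0.59 at 48 h (adjusted p = 0.08), which became 0.87 (adjusted p = 0.022) without S48 replicate 2.

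Cdkn1c did change along the course. Relative to C0 it was lower at 4 h (−0.78, adjusted p = 0.0071), at 10 h (−1.04, adjusted p = 8.42e-06), at 20 h (−0.91, adjusted p = 1.15e-04) and at 28 h (−0.65, adjusted p = 0.0337). The X10 livers lay at −3.57 to −2.60 (median −2.99, n = 6), the lowest group. Sham livers were also lower than C0 at 1 h (−0.63) and 4 h (−0.71), and S4 was lower than C4 at the same hour (−1.38, adjusted p = 2.24e-05). With all 9 C0 livers, lower Cdkn1c was thus called after either operation at 4 h. At 1 h it was called after sham and not after PH (−0.45, limma adjusted p = 0.0714). Some markers of other cells were called lower in the early comparisons too. Of all genes tested, 26.9% were called lower in X4 against C0 and 2336 of 15396 in X10 against C0. In S4 against C4, 31% were called lower and 1886 genes higher. In X4 against C0, 6 of 8 stellate cell, 4 of 9 macrophage, 4 of 6 B and T cell, 3 of 6 cholangiocyte and 3 of 7 endothelial markers were called lower, and in X10 they were 4, 5, 3, 4 and 2 of these. In S4 against C4, 7 stellate cell, 4 macrophage, 5 B and T cell, 2 cholangiocyte and 3 endothelial markers were called lower and 5 neutrophil markers higher. Summed stellate cell markers were at 87.9 to 149 RPKM in C0, 62.9 to 80 in X4, 67.1 to 84.5 in X10 and 59.6 to 85.9 in S4. Their part in the Cdkn1c changes was not tested. The calls against C0 were fragile: with C0 replicates 1 to 3 alone the post-PH changes were −0.37 at 4 h, −0.50 at 20 h and −0.24 at 28 h, none called. Those C0 livers had a mean of 0.340 RPKM, beside 0.554 over all C0 livers, 0.258 in S1 and 0.225 in S4. The sham changes from C0 are therefore smaller with them alone, and whether those calls held is not given here.

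At 72 h Cdkn1c was at its highest. The X72 livers measured −0.38, 1.17 and 1.87 log2 RPKM, and the change from C0 was 1.49 (adjusted p = 1.26e-06; 26.6% of genes were called higher). From X48, whose livers measured −1.34, −1.03, −0.74, −0.37 and −1.09, it rose by 1.46 (adjusted p = 2.04e-04; 2.23% of genes higher), while Cdkn1b, Cdkn2c and Cdkn2d fell. It then fell by 1.56 between X72 and X1W (adjusted p = 1.22e-04; 12.2% of genes lower), to −1.45, −1.38 and −0.40. One X72 liver lay within the X48 range and just above the highest X1W liver, and in fits of only the groups compared the X72 changes from X48 and to X1W were not called (adjusted p = 0.0868 and 0.121). It had risen by 0.70 from X28 to X36 (adjusted p = 0.0406), which was 0.48 (adjusted p = 0.177) without X36 replicate 2. Markers of other cells also differed between X72 and C0: 3 of 7 neutrophil markers and 2 of 9 macrophage markers were called higher, and 4 of 6 B and T cell, 1 of 6 cholangiocyte, 1 of 3 erythroid, 2 of 8 stellate cell and 1 of 1 pancreas acinar markers lower, with summed neutrophil markers at 3.23 to 31.8 RPKM in X72 and 0.361 to 49.6 in C0. Among all genes tested, 26.6% were called higher and 1015 genes lower in that comparison. The part of these markers in the Cdkn1c change was not tested. In whole liver, fewer cells of a type and less RNA per cell cannot be told apart.

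Of 14 imprinted genes in the network to which Cdkn1c belongs, 11 were tested, and 2 were called higher at 48 h against sham, the zinc-finger gene Peg3 (0.71) and the IGF2 receptor gene Igf2r (0.66), beside 24.5% of all genes called higher. The list median was 0.27, the same as that of all genes. At 36 h against C0, where 35% of all genes were called, 3 were called higher, Phlda2, a neighbour of Cdkn1c in its imprinted cluster (1.51), Peg3 (1.23) and Igf2r (1.11).

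Among the INK4 genes, Cdkn2a and Cdkn2b never passed the filter of −1.5 log2 RPKM in at least 1 library and were not tested. Cdkn2a, whose 2 products p16Ink4a and p19Arf share 1 row of the table, had 0 reads in 48 of the 80 libraries. No library held more than an estimated 4 reads, and the total over all was 51.9. Every library of X1 and of S20 was at 0; a count of 0 allows up to 3 reads, which covers counting error only. Cdkn2b was at 0 in 7 libraries, with a median of 2.99 and a highest value of 9.98 estimated reads. Its highest log2 RPKM was −2.2, in C0 replicate 7. Without the filter neither gene was called in any comparison, but Cdkn2b lay below C0 with an adjusted limma p below 0.05, and a change short of 0.5, in X4 (−0.49), X20 (−0.37), X36 (−0.36) and S4 (−0.43).

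Cdkn2c had the largest PH-sham change of the 5 members tested, at 48 h, and was called higher than C0 from 28 h to 1 week. In C0 it lay between −0.20 and 0.68 log2 RPKM (median 0.23, n = 9). The post-PH values were 1.13, 1.09 and 0.45 at 28 h, 2.07 to 3.26 (median 2.72, n = 6) at 36 h, and 4.27, 3.79 and 3.96 at 44 h. They were 3.14, 3.76, 3.72, 4.03 and 3.62 at 48 h, 2.56, 3.15 and 3.06 at 72 h and 1.83, 1.6 and 1.76 at 1 week. All livers from 36 h to 1 week were above every C0 liver.

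Before that, Cdkn2c was low. The X4 livers measured −1.18, −1.25 and −1.76, below all other groups, and the S4 livers −1.13, −0.83, −0.42, −0.94 and −0.80. X4 was lower than C0 (−1.20, adjusted p = 1.36e-09; 26.9% of genes lower), and so was S4 (−0.83, adjusted p = 1.35e-07; 22.7% of genes lower). S4 was also lower than C4, at the same hour (−1.11, adjusted p = 1.21e-07; 31% of genes lower). The X4-S4 difference of −0.37 was not called (adjusted p = 0.149), although the 2 groups did not overlap.

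The step changes of Cdkn2c after PH ran from 4 h to 44 h. It rose by 1.74 from X4 to X28, by 1.6 from X28 to X36 (adjusted p = 2.47e-12; 15.1% of genes higher) and by 1.35 from X36 to X44. At the same hour of the day, X44 exceeded X20 by 3.57 (adjusted p = 6.31e-29). It fell by 0.71 from X48 to X72, not called without X72 replicate 1 (−0.54, adjusted p = 0.0853), and by 1.14 from X72 to X1W. Against C0 it was higher by 0.54 at 28 h (a call lost at 0.49 without C0 replicate 7, at 0.43 without X28 replicate 1 and at 0.45 without X28 replicate 2), 2.14 at 36 h, 3.50 at 44 h (11.3-fold, adjusted p = 4.88e-30), 3.15 at 48 h, 2.44 at 72 h and 1.30 at 1 week (adjusted p = 3.35e-09). At 1 week it was the only member called with all 9 C0 livers; with C0 replicates 1 to 3 or 7 to 9 alone Cdkn1a was called too (1.28 and 1.34), and with replicates 4 to 6 alone Cdkn2d (0.74).

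At 4 weeks no member was called between X4W and C4W, a comparison with 2 livers a group in which 0.065% of genes were called, and 1 member had an unadjusted limma p below 0.05. That 1 was Cdkn2c, at 0.75 and 0.81 log2 RPKM in X4W and 0.17 and 0.06 in C4W, a difference of 0.56 (0.10 to 1.03; adjusted p = 1).

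Sham livers showed no such rise. At 48 h they measured 0.10, 0.24 and 0.21 log2 RPKM, within the C0 range, and Cdkn2c was higher after PH by 3.21 (SE 0.170, 95% interval 2.87 to 3.55), which is 9.28-fold, with a limma adjusted p of 8.29e-26. At 20 h, X20 (−0.20 to 0.38, median 0.20, n = 6) and S20 (0.16, 0.31 and −0.24) overlapped. The PH-sham difference changed between 20 h and 48 h by 3.14 (2.67 to 3.62, adjusted p = 8.69e-18), a call made for 12.5% of genes in that direction. With a common median the 48 h change was 2.75.

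**Figure D4:**
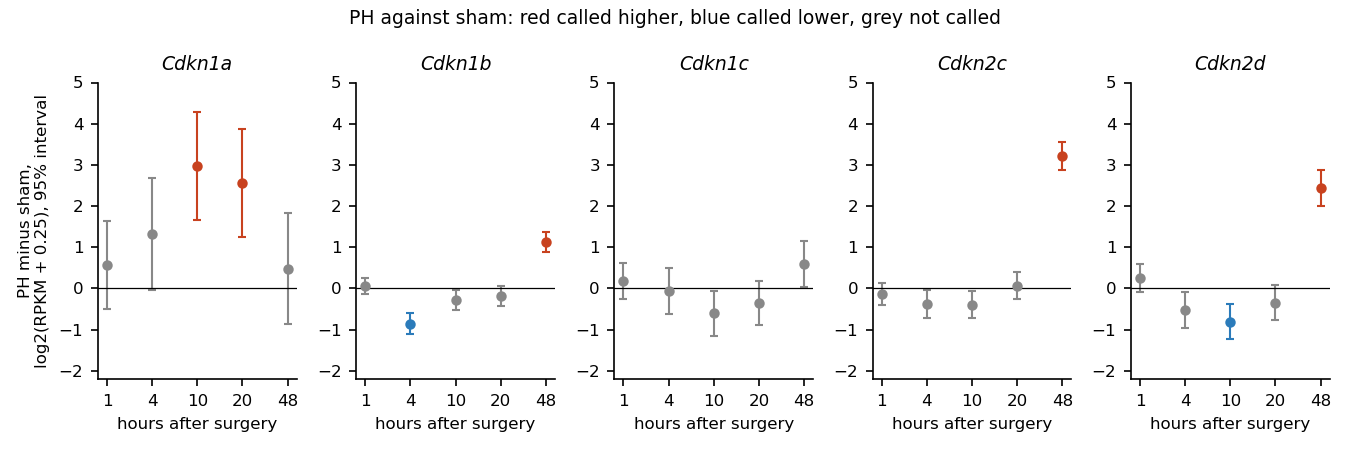
PH minus sham difference on the log2(RPKM + 0.25) scale (vertical axis) with 95% intervals at each time after surgery (horizontal axis) for the 5 members tested. Cdkn1a is above 0 at 10 h and 20 h, Cdkn1b is below 0 at 4 h and above at 48 h, and Cdkn2c and Cdkn2d are above 0 at 48 h by 3.21 and 2.44.

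Cdkn2d followed a course like that of Cdkn2c. Its values were lower, but their level is uncertain because reads were divided with the copy Gm4694. Its C0 livers lay between −1.12 and 0.07 log2 RPKM (median −0.15, n = 9). The highest groups were X44 (3.18, 2.56 and 2.56) and X48 (1.80, 2.59, 2.22, 2.52 and 1.99), neither of which overlapped with X72 (1.45, 1.22 and 1.52). The lowest was S1 (−2.80 to −1.49, median −2.11, n = 6), followed by X4 (−1.74, −1.37 and −1.94).

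At 48 h the sham livers measured −0.99, −0.30 and −0.55 log2 RPKM, and Cdkn2d was higher after PH by 2.44 (SE 0.218, 95% interval 2.01 to 2.88), which is 5.43-fold, with a limma adjusted p of 5.03e-15. When the values of Cdkn2d and its copy Gm4694 were summed, the change was 2.66 (SE 0.247, adjusted p = 2.57e-14). The PH-sham difference had changed since 20 h by 2.78 (2.18 to 3.39, adjusted p = 2.31e-11). At 10 h the sign was opposite: the X10 livers (−2.04 to −1.09, median −1.38, n = 6) lay below the S10 livers (−0.50, −0.41 and 0.11), by −0.81 (adjusted p = 0.00618) or, summed with the copy, −0.95 (adjusted p = 0.00442). That call was lost without S10 replicate 3 (−0.66, adjusted p = 0.0889) and with a pseudocount of 1 (−0.42).

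Relative to C0, Cdkn2d was lower at 1 h (−0.83), 4 h (−0.88) and 10 h (−0.75) after PH and at 1 h after sham (−1.09, adjusted p = 4.47e-07; 5.34% of genes lower). It was higher at 36 h (0.81), 44 h (2.77, adjusted p = 2.23e-19), 48 h (2.25) and 72 h (1.48). These changes used all 9 C0 livers. Replicates 4 to 6 had a lower mean (0.559 RPKM) than replicates 1 to 3 (0.919) and 7 to 9 (0.948). Against replicates 4 to 6 alone the lower changes are therefore smaller and the higher ones larger. Whether the lower calls held with those livers alone is not given here. Cdkn2d rose by 0.73 from X4 to X28 (0.65 without X4 replicate 6 and 0.67 without X28 replicate 2, neither called). Further rises were 0.96 from X28 to X36 and 1.96 from X36 to X44. Cdkn2d fell by 0.77 from X48 to X72 (−0.69 and not called without X72 replicate 2) and by 1.11 from X72 to X1W. By 1 week (0.45, 0.00 and −0.09) it was no longer called against C0, where Cdkn2c was; whether the 2 genes differed in that return was not tested.

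In total, 7 of the 25 PH-sham comparisons of the 5 members were called, 5 higher and 2 lower after PH: Cdkn1a at 10 h and 20 h, Cdkn1b at 4 h and 48 h, Cdkn2c at 48 h and Cdkn2d at 10 h and 48 h. At 48 h 3 of 5 were called higher, where 27.2% of all genes were called. At 1 h, 4 h, 10 h and 20 h, 0.65%, 8.64%, 7.02% and 7.11% of all genes were called against sham. Against C0 and C4W 32 were called after PH (19 higher, 13 lower). Of all genes, 13.5% to 39.2% were called in the comparisons with C0 and 0.065% in that with C4W. Against C0 9 were called after sham (3 higher, 6 lower), beside 7.77% of all genes at 1 h, 34.4% at 4 h, 29.1% at 10 h, 12.1% at 20 h and 8.88% at 48 h. Against C4, all 5 members were called in X4 (Cdkn1a higher, 4 lower) and 3 in S4 (1 higher, 2 lower), beside 45.6% and 43.3% of all genes. Between unoperated livers of ZT6 and ZT2, only Cdkn1a was called, at −2.83 (adjusted p = 0.00129; 7.89% of genes were called), a value that was −1.42 (adjusted p = 0.117) with C0 replicates 7 to 9 alone.

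Over the 19 group means, the members' profiles on the log2(RPKM + 0.25) scale were correlated most for Cdkn2c and Cdkn2d (Pearson r = 0.936), followed by Cdkn1b with Cdkn2d (0.894) and with Cdkn2c (0.821). These are descriptions over groups that share libraries with every test above. Of 11431 other genes, those with profiles most like Cdkn2c were Esco2, which establishes sister chromatid cohesion (0.984), Stmn1, a microtubule destabiliser (0.984), and Cenpa, the centromeric histone (0.982). Those most like Cdkn2d were its copy Gm4694 (0.999), Arhgap19 (0.961) and Hyls1 (0.959). Fam100b, Gm7367 and Ccdc61 were most like Cdkn1b (0.918 to 0.924) and Smoc2, Dap3 and BC021614 most like Cdkn1c (0.873 to 0.909). Fam35a, the transcription factor gene Zbtb16 and Gm5582 were most like Cdkn1a (0.887 to 0.908). All 3 also lay higher in C0 replicates 4 to 6 than in the other C0 livers, as did 7.05% of all genes tested. Zbtb16 lay at 3.12 to 3.52 against −0.31 to 1.29 log2 RPKM. The 3 genes were picked on group means that include C0, so their likeness within C0 is not independent of that choice.

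The cyclins and kinases that these proteins bind were higher in the same late period. Of 12, none was called higher at 4 h against sham, 2 at 10 h, 4 at 20 h and all 12 at 48 h, when their median was 1.75 beside 0.27 for all genes. At these times 3.16%, 3.4%, 4.49% and 24.5% of all genes tested were called higher. At 10 h the 2 were the D-type cyclins Ccnd1 (1.22, adjusted p = 0.0193) and Ccnd2 (0.67), which the INK4 proteins oppose. At 48 h the largest changes were of the mitotic cyclins Ccnb2 (6.31; 33.8 RPKM after PH and 0.168 after sham) and Ccnb1 (5.95), the mitotic kinase Cdk1 (5.79) and the S-phase cyclin Ccna2 (5.68). At 36 h against C0, 11 of 12 were called higher, led by Ccnd1 (4.51; 82.8 against 3.64 RPKM), Ccne1 (4.42), Cdk1 (4.13) and Ccna2 (4.02). Of all 15396 genes tested, 3964 were called higher at 36 h against C0. All 14 proliferation markers were called higher at 48 h against sham, beside 24.5% of all genes, with a median of 3.66. Mki67 stood at 17.2 RPKM after PH and 0.209 after sham.

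Of the 3 pocket proteins, which restrain E2F until cyclin-dependent kinases phosphorylate them, Rbl1 (p107) was called higher at 48 h (2.86) and at 36 h against C0 (2.36). Of 14 regulators of the Cdkn2a and Cdkn2b locus, 6 were called higher and 1 lower at 48 h, with a median of 0.32, beside 27.2% of all genes called. They included Ezh2 (2.08) and Suz12 (0.81), subunits of Polycomb repressive complex 2, Id1, an inhibitor of basic helix-loop-helix factors (1.54), and the AP-1 gene Junb (−1.0). At 10 h, Id1 (2.20) and Ets2 (0.79) were called higher and the Polycomb gene Cbx7 (−0.56) lower. Of 10 FoxO and TGF-beta effectors, upstream of the p27 and p15 genes, 3 were called higher and 1 lower at 48 h, the receptors Tgfbr2 (0.74) and Tgfbr1 (0.52), Smad3 (0.57) and Foxo3 (−0.65), with a median of 0.28, beside 24.5% of all genes called higher; at 4 h, beside 8.64% of all genes called, 2 were called higher and 2 lower.

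Some cell type markers were also called in these comparisons. Among all genes tested, 24.5% were called higher and 414 genes lower at 48 h. The shares were 3.4% higher and 3.62% lower at 10 h, and 4.49% higher and 2.61% lower at 20 h. At 48 h, 2 of 8 stellate cell markers were called higher after PH (summed 60.2 to 116 RPKM in X48, 74.4 to 80.3 in S48), 1 of 6 cholangiocyte markers was called higher (31.8 to 44.4 against 19.8 to 29.7), and 2 of 8 hepatocyte markers (33530 to 38610 against 37340 to 46990) and 1 of 3 erythroid markers tested (20.0 to 40.2 against 30.2 to 59.7) were called lower. None of 9 macrophage (limma, 0 at an unadjusted p below 0.05), 7 endothelial (0), 7 neutrophil (0), 6 B and T cell (4) or 1 pancreas acinar (1) markers tested was called, and the neutrophil marker Ly6g was at 0 in every X48 and S48 liver. At 10 h, 1 of 8 stellate (67.1 to 84.5 RPKM in X10, 49.3 to 70.7 in S10), 1 of 7 endothelial (11.3 to 18 against 12.8 to 15.9) and 1 of 8 hepatocyte markers (29350 to 34670 against 31630 to 35550) were called higher. At 20 h, 3 of 8 stellate markers (76.9 to 105 RPKM in X20, 55.2 to 82.3 in S20) and 1 hepatocyte marker were called higher, and 1 of 3 erythroid markers lower (14.5 to 43.9 RPKM in X20, 27.8 to 55.3 in S20). Their part in the inhibitor differences was not tested.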

How the data were processed

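The deposited table holds log2 RPKM per gene. Per the labels and the study's methods, the authors sequenced single-end reads of 100 nucleotides from poly(A) RNA, removed adapters, aligned to mm9 with TopHat2 2.0.13 and Bowtie2 (SAMtools 0.1.19), and counted with featureCounts on the transcribed strand in Ensembl 67 genes, dividing multiply mapped reads; genes without reads stand at −14.29 (52.9% of values). Of 87 labelled samples, 80 libraries were analysed; 7 samples and 4 columns matching no label were not used. Libraries are single livers, from several periods that replicate numbers do not name. Low values gave whole reads (within 0.05) for a median of only 83.3% of values, so no count test was run and depth is an estimate.

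Here log2(RPKM + 0.25) of genes above −1.5 log2 RPKM in at least 1 library (15396 genes, 5 of 7 members) was fitted with limma 3.58.1 in R 4.3.3, with 19 groups in 1 fit, eBayes with trend and Benjamini-Hochberg adjustment over all genes, after tests on simulated data. Other steps used Python 3.11.15, numpy 2.4.6, pandas 2.3.3 and matplotlib 3.10.9. A fold on this scale understates the change of low genes. Members, lists and tests were chosen with earlier results of these data known. List genes were named by size of change, at most 4 per list in 48 h against sham, 36 h against C0 or 10 h against sham, and p53 targets in C0 after their values were seen. Profile likeness is Pearson's r over 19 group means. Replicate numbers did not pair livers (correlations of deviations −0.186 to 0.273).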

Additional observations from a re-analysis of the deposited data

Results flagged for a closer look

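Among 40 member-by-group sets of 4 to 10 livers, 3 had 1 liver far from the rest by Dixon's gap test, which chance gives in about 1 of 20. Cdkn1a in X1 replicate 6 was at 5.46 log2 RPKM, below the other X1 livers at 6.03 to 6.18. In X48 replicate 4 it was at 5.36, above the others at 4.69 to 4.75. Cdkn1c in X36 replicate 2 was at 0.59, above the others at −1.74 to −0.81.

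The PH-sham difference changed between successive times in 5 of 20 limma interaction tests. For Cdkn1b it changed by −0.92 from 1 h to 4 h (95% interval −1.24 to −0.60, adjusted p = 1.28e-04), by 0.58 from 4 h to 10 h (0.23 to 0.93, adjusted p = 0.0443) and by 1.30 from 20 h to 48 h (0.95 to 1.65, adjusted p = 2.01e-08). From 20 h to 48 h it also changed by 3.14 for Cdkn2c (2.67 to 3.62, adjusted p = 8.69e-18) and by 2.78 for Cdkn2d (2.18 to 3.39, adjusted p = 2.31e-11). The S20 and S48 livers came from different periods, which cannot be told apart from time in these 20 h to 48 h changes.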

How the results depend on the processing

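Over 97 alternatives, of which 80 left out 1 library, member comparisons kept direction and call 3679 times, lost the call 141 times, gained one 47 times and reversed 13 times, all for Cdkn1a against C0. With C0 replicates 1 to 3 only it was 1.23 for X28 and 1.28 for X1W; with 7 to 9 only, 1.29 and 1.34; with 4 to 6 only, −2.54 for X10, −0.91 for X20, −1.79 for X36, −0.38 for X44, −0.57 for X48, −1.15 for X72, −3.59e-04 for S1, −0.38 for S4 and −1.06 for S48. A pseudocount of 1, which shrinks changes of low genes, gave 20 calls of PH against unoperated (32 in the report) and 7 of sham against unoperated (12, C4 included). Fits of only the groups compared, with fewer livers, gave 13 calls between post-PH times (20) and 0 for C4 against C0 (1; limma, 2 members at an unadjusted p below 0.05). For C4 against C0, C0 replicates 1 to 3 only gave 2 and 7 to 9 only 0 (1 at an unadjusted p below 0.05). Only replicates 4 to 6 of both groups gave 2 calls at 1 h and 4 h against sham (1). Leaving out 1 library gave 6 to 8 calls of PH against sham (7), 29 to 33 of PH against unoperated, 11 to 12 of sham against unoperated, 18 to 20 between times, 1 to 2 for C4 against C0 and 4 to 6 changes of the PH-sham difference (5). The replicate block gave 7, 27, 9, 19, 2 and 5 calls in these families, and 7, 26, 9, 20, 2 and 5 with numbers in threes; with 3 or more pairs, correlations of same-numbered livers ranged from −0.186 to 0.273, so the numbers were not taken as pairs. With libraries scaled to a common median, the share of all called genes that were higher went from 29.5% to 80.1% across the PH comparisons with C0 to 33.8% to 51.1%, from 28.3% to 64.6% to 36% to 56.5% for sham, from 25.3% to 83.3% to 41.8% to 58.8% between times, and from 73.6% to 51.4% for C4 against C0; Cdkn1b then became called lower than C0 in X20 (−0.66) and X36 (−0.57). Causes other than those given were not tested. Depth limits Cdkn2a and Cdkn2b, neither of which was called without the filter.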
